A study of Homo sapiens with 6 samples.

Results

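The genes described here are 10 surface or secreted ligands through which a tumour cell is recognised, restrained or spared by T cells, natural killer cells and macrophages. They are CD274, PDCD1LG2, CD276, CD47, LGALS9, PVR, NECTIN2, ULBP2, CD58 and ICAM1. Each was taken by its symbol from the deposited tables of 61860 gene rows, and all 10 were found and tested. RNA was sequenced after ribosomal RNA depletion from 786-O cells, an established human line of clear cell renal cell carcinoma without functional VHL. In the control group the cells stably expressed a control short hairpin RNA (shRNA), and in the knockdown group an shRNA directed at METTL3. METTL3 is the methyltransferase subunit that deposits N6-methyladenosine (m6A) on mRNA. There were 3 libraries in each group, called A, B and C after the letters of the deposited columns. Whether they were grown as separate cultures is not stated in the labels, and p-values below rest on the spread among libraries, which could be technical.

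Checkpoint ligands bind receptors on lymphocytes or phagocytes and lower or raise their activity. CD274 (PD-L1) and PDCD1LG2 (PD-L2) engage PD-1 on activated T cells, and CD47 engages SIRP-alpha on macrophages as a signal against engulfment. PVR (CD155) and NECTIN2 (CD112) bind the activating receptor CD226 and the inhibitory receptor TIGIT, and NECTIN2 also binds PVRIG, while ULBP2 is a ligand of the activating receptor NKG2D. ICAM1 and CD58 are adhesion ligands of LFA-1 and CD2 that hold the contact between a lymphocyte and its target. Expression of PD-L1 and of ICAM1 is known to be raised by interferon-gamma and NF-kB signalling, and clear cell renal carcinoma is treated with antibodies against PD-1.

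The libraries held between 100534896 and 103624456 counts. METTL3 received 3874, 4060 and 4141 counts in the control libraries and 1064, 956 and 1145 in the METTL3 shRNA libraries, a log2 fold change of -1.80 (SE 0.08, edgeR adjusted p = 1.45e-07). The columns of the knockdown carry a number that no label explains, and this level is the check of their assignment. The renal marker PAX8 averaged 142 CPM (counts per library total after TMM scaling) in control libraries and the epithelial keratin KRT8 averaged 180 CPM. By contrast CDH1, which encodes E-cadherin, never exceeded 11 counts, and EPCAM averaged 0.522 CPM in control libraries. Most markers of other cell types were near 0. Of 11 leukocyte markers, 8 had at most 10 counts in every library, among them PTPRC with at most 4 counts and CD3E and MS4A1 with 0. The other 3 were CD8A, CD14 and CD68, of which CD68 received 5393 counts or more. The summed level of the list was 50.5 to 59.5 CPM in control libraries and 88.6 to 115 CPM in METTL3 shRNA libraries, and most of it was CD68, which rose (0.95, SE 0.10). CD14 fell from 0.211 ± 0.086 to 0.079 ± 0.024 CPM (SD, n = 3 each; -1.41, SE 0.43, edgeR adjusted p = 0.0232). It had 12, 30 and 26 counts in control libraries and 9, 5 and 9 in METTL3 shRNA libraries. Only the controls met the filter on low counts, so CD14 entered the test through the group where it is high. CD8A stood at -0.42 (SE 0.20) and did not pass. Of the 12 receptors for these ligands, 8 had at most 10 counts in every library, PDCD1 and TIGIT among them. ITGB2, the beta chain of LFA-1, was the exception in size at 10.4 ± 2.92 CPM in control and 5.07 ± 1.04 CPM in METTL3 shRNA libraries (SD, n = 3 each), and it fell, as did HAVCR2. None of 5 endothelial markers was tested, with sums of 0.134 to 0.245 CPM in control and 0.15 to 0.185 CPM in METTL3 shRNA libraries, and of 6 fibroblast markers PDGFRB and LUM fell, with sums of 3.85 to 4.59 CPM against 2.17 to 2.35 CPM. Of 9 renal markers 8 were tested, and PAX8 and MME rose while KRT19 fell. The part of these genes in the ligand results was not tested.

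Of the 10 ligand genes, CD276 rose and PDCD1LG2, LGALS9 and ULBP2 fell in the METTL3 shRNA libraries. The other 6, CD274, CD47, PVR, NECTIN2, CD58 and ICAM1, did not pass the test. The 4 changed genes differed by a log2 fold change of 0.39 for CD276, -0.46 for PDCD1LG2, -0.91 for LGALS9 and -0.41 for ULBP2. The test was edgeR's quasi-likelihood test on counts at a Benjamini-Hochberg adjusted p under 0.05 over 18740 genes. Over all genes tested 33.5% passed, 16.5% higher and 16.9% lower, so 4 of 10 ligands is close to the share found in any genes. The median log2 fold change was -0.07 over the ligands and -0.0030 over all genes tested. The CPM of the groups did not overlap for 4 ligands, the same 4 that passed, against 47.4% of all genes. All 10 were counted in every library, with at least 46 counts, so none entered the test through a single group. With library size as the sole scaling, the median of all genes moved to -0.11 and fewer of the changed genes were higher, down from 49.4% to 29.6%. Under that scaling 1 ligand was higher and 5 were lower, with CD274 (-0.39) and PVR (-0.22) added.

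In bulk RNA a lower share of cells that express a gene and less RNA per cell cannot be told apart. Levels between genes are compared on the deposited FPKM scale (fragments divided by transcript length and library total). ICAM1 stood highest in the control libraries at 284 ± 6.81 FPKM (SD, n = 3), followed by CD276 at 127 ± 6.73. PVR at 56.9 ± 1.67 and NECTIN2 at 56.7 ± 4.54 did not differ beyond their spread. Below them came CD47 at 29.8 ± 5.34, ULBP2 at 21.0 ± 2.28, CD58 at 13.6 ± 1.78 and CD274 at 9.97 ± 0.51. PDCD1LG2 at 4.38 ± 0.056 and LGALS9 at 0.83 ± 0.13 closed the order. The METTL3 shRNA libraries gave the same order except that NECTIN2 (52.9 ± 1.13) and PVR (51.6 ± 3.42) changed places, again with overlapping ranges. Every other pair of neighbours was apart in each group in all 3 libraries. The ligands therefore spanned from percentile 97.7 of tested genes by control FPKM, for ICAM1, to percentile 27.2, for LGALS9.

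**Figure D1:**
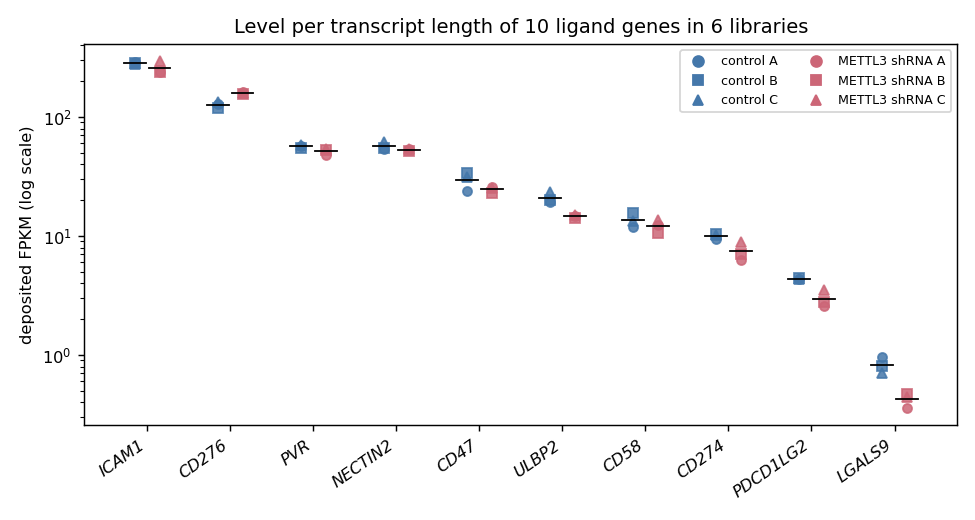
Deposited FPKM on a log scale for the 10 ligand genes, ordered by control level. Points are single libraries, blue for control and red for METTL3 shRNA, and black lines are group means. ICAM1 lies at 237 FPKM or more in every library and LGALS9 at 0.97 FPKM or less.

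Promoter windows were looked at because CD274 and ICAM1 are textbook targets of interferon-gamma and NF-kB, and because CD276 and ULBP2 are 2 of the changed genes. The windows are the 250 bases before the transcript start in RefSeq on GRCh38.p14, written 5′ to 3′ on the strand of the gene. Capitals mark matches, on either strand, to an IRF element (TTTC and TTTC with NN between them), a GAS element, the interferon-gamma activated site (TTCNNNGAA), or an NF-kB element (GGANNTTCC or GGGNNTTCC).
CD274, chr9:5450292-5450541, plus strand: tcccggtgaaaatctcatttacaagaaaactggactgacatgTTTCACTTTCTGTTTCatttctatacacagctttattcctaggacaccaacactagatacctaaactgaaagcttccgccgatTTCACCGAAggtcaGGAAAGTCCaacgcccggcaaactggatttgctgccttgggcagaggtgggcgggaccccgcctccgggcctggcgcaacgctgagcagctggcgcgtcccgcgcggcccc
ICAM1, chr19:10270870-10271119, plus strand: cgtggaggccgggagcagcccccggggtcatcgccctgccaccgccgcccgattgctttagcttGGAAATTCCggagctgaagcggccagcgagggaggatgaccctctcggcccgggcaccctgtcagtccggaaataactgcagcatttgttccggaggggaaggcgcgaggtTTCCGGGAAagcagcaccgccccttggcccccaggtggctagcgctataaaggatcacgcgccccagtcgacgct
CD276, chr15:73684133-73684382, plus strand: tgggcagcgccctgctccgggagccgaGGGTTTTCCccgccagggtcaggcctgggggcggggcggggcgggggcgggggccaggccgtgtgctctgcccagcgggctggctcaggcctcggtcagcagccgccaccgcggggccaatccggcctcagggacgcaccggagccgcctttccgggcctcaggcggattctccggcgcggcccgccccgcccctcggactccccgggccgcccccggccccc
ULBP2, chr6:149941764-149942013, plus strand: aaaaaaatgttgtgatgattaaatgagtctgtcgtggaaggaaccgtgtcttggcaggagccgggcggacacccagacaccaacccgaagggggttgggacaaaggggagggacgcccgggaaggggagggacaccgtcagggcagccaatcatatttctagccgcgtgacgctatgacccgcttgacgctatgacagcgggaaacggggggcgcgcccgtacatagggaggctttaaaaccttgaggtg
The CD274 window holds overlapping IRF matches that begin 208 and 202 bases before the start. It also holds a GAS match at 125 bases and an NF-kB match at 111 bases. ICAM1 has an NF-kB match at 186 bases and a GAS match at 75 bases, and the CD276 window shown has an NF-kB match at 223 bases. Of 35116 windows of the same length, 3.02% hold the IRF element, 6.57% the GAS element and 9.34% the NF-kB element. A window was found for 9 of the 10 ligands, with 2 windows for CD276, and none for PDCD1LG2. In the windows of 6 ligands, ULBP2 among them, these letters did not occur. Such matches are descriptions of the letters and not evidence of binding.

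CD274 and PDCD1LG2 lie next to each other on the plus strand of chromosome 9, with CD274 from 5450503 to 5470566 and PDCD1LG2 from 5510570 to 5571254 (GRCh38, GENCODE 29). The gap between them is 40.0 kb. CD274 was measured at 25.9, 28.8 and 28.01 CPM in the control group (libraries A, B, C in this order, as below) and at 20.5, 20.2 and 27.6 CPM in the METTL3 shRNA group. METTL3 shRNA libraries A and B lay below all controls, while library C lay within the control range. The log2 fold change was -0.28 (SE 0.11, 95% interval -0.52 to -0.04) and did not pass the test (edgeR adjusted p = 0.0684). Without METTL3 shRNA library C it was -0.44 (edgeR adjusted p = 0.0018). Over all 17 alternatives the value ran from -0.44 to -0.20, and it did not pass in 11 of them. On the deposited FPKM scale the groups did not overlap, with 9.40, 10.4 and 10.1 in control libraries and 6.27, 7.11 and 8.98 in METTL3 shRNA libraries. The call passed with limma on log2(FPKM + 1) (adjusted p = 0.0263), and with edgeR it passed under library size scaling (0.0290). FPKM is scaled by library total too. The median of all genes was -0.094 on log2(FPKM + 1) and -0.11 under library size scaling. These FPKM and library size results thus share a scaling and are not separate support.

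PDCD1LG2 was at 9.25, 9.18 and 8.78 CPM in control libraries and at 5.85, 6.26 and 7.63 CPM in METTL3 shRNA libraries. The groups did not overlap, and METTL3 shRNA library C was again nearest to the controls. The gene fell by 27.4%, a log2 fold change of -0.46 (SE 0.11, edgeR adjusted p = 0.0060), and it passed in all 17 alternatives. The log2 ratio of PDCD1LG2 to CD274 within a library was -1.60 ± 0.10 in controls and -1.78 ± 0.084 in METTL3 shRNA libraries (SD, n = 3 each). These ratios did not overlap, and the exact two-sided permutation test gave p = 0.1, the smallest that 3 against 3 libraries allow.

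CD276 (B7-H3) is a B7 family protein of tumour cells whose receptor is not settled. The gene lies on chromosome 15 from 73683966 to 73714518. CD276 had 287, 254 and 271 CPM in control libraries and 364, 362 and 342 CPM in METTL3 shRNA libraries. All 3 METTL3 shRNA libraries lay above all 3 controls, and the gene rose 1.31-fold (log2 fold change 0.39, SE 0.08, edgeR adjusted p = 0.0027). CD276 was the only ligand of the 10 that rose. The rise was found in all 17 alternatives, with values from 0.28 under library size scaling to 0.44. The log2 ratio of CD276 to CD274 within a library went from 3.30 ± 0.16 to 3.98 ± 0.31 (SD, n = 3 each) without overlap, with an exact two-sided permutation p of 0.1, again the smallest possible. Since CD276 alone was already apart between the groups, this ratio reuses the same values and adds no support.

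**Figure D2:**
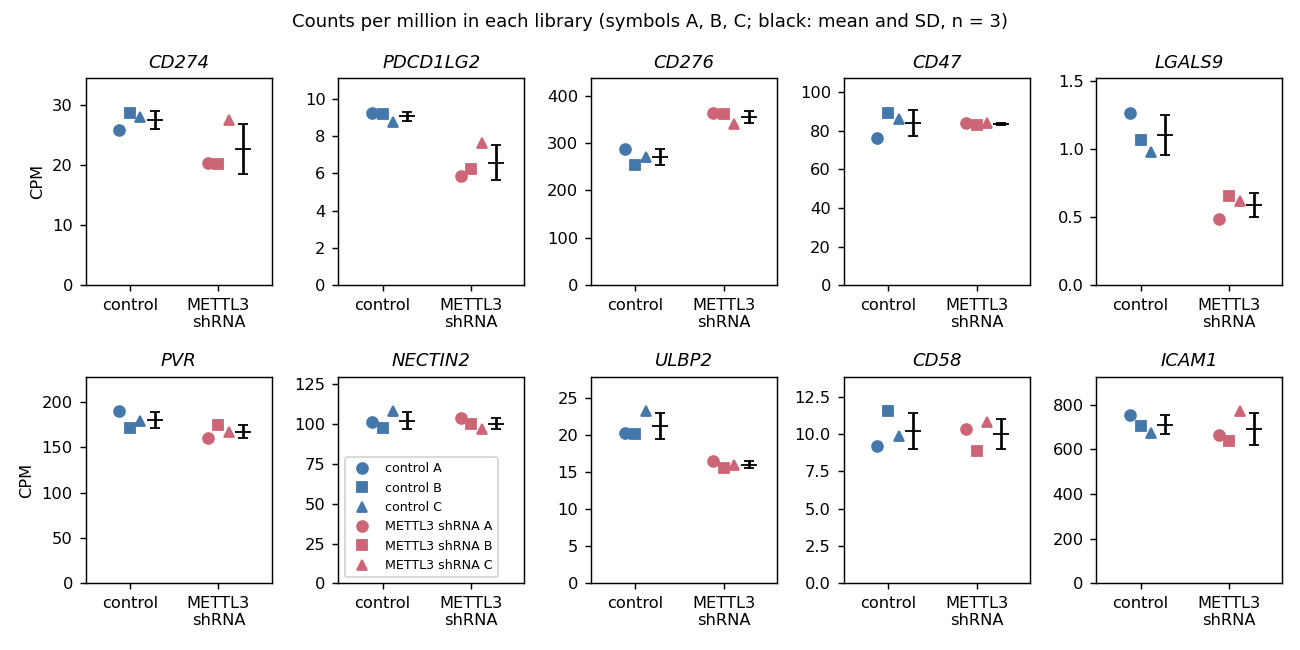
CPM of each ligand gene in each library, with the y axis from 0 and the mean and SD of 3 libraries in black. CD276 is higher in the METTL3 shRNA libraries (red), PDCD1LG2, LGALS9 and ULBP2 are lower, and the groups overlap for the other 6.

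LGALS9 encodes galectin-9, a sugar-binding protein that engages TIM-3 among other receptors. It lies on chromosome 17 from 27629798 to 27649560. LGALS9 received 132, 114 and 108 counts in control libraries and 46, 64 and 62 in METTL3 shRNA libraries, which is 1.27, 1.07 and 0.981 CPM against 0.487, 0.659 and 0.619 CPM. The groups were apart, and the gene fell by 46.7%, the widest relative change of the 10 (log2 fold change -0.91, SE 0.20, edgeR adjusted p = 0.0042). Its level is low, at 0.83 ± 0.13 FPKM in control libraries (SD, n = 3), so counting error is larger here than for the other ligands. On log2(FPKM + 1) the difference was -0.36 and still passed, although a pseudocount of 1 shrinks a value of this size. In the alternatives that filter at 0.5 FPKM, or at 1 CPM before TMM scaling, only the control libraries met the filter. LGALS9 entered those fits through the group where it is high, so they add no support. Of the 100-base windows of its reference transcript, 7.59% also occur in AC015688.4 or LGALS9DP, so some of its reads may be shared. That transcript has 3114 bases, more than the 1479 bases or fewer that the deposited counts and FPKM together imply.

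The ligand CD47 was at 76.5, 89.4 and 86.1 CPM in control libraries and at 83.9, 83.1 and 84.1 CPM in METTL3 shRNA libraries. The knockdown libraries lay inside the control range and the log2 fold change was -0.0048 (SE 0.08, edgeR adjusted p = 0.968). Its 95% interval ran from -0.17 to 0.16, which is 0.887-fold to 1.12-fold. The deposited FPKM values ran differently, at 23.8, 34.0 and 31.6 in control libraries and 25.8, 23.1 and 25.3 in METTL3 shRNA libraries. On log2(FPKM + 1) the difference was -0.24 and did not pass (limma adjusted p = 0.137). The length that the count and FPKM tables imply for CD47, after each library was scaled to the median gene, ran from 2732 to 3450 bases. That is a ratio of 1.26 between libraries, where the median over 10956 genes of at least 5 CPM was 1.07 and the 90th percentile was 1.22. The 2 tables thus weigh CD47 transcripts differently from library to library, and the cause was not tested. Between the groups the log2 ratio of implied length was 0.14, with overlap. The deposited FPKM also carry the scaling by library total, under which the count difference of CD47 was -0.12 (edgeR adjusted p = 0.310). Implied lengths of ULBP2, PDCD1LG2 and ICAM1 differed by ratios of 1.00, 1.00 and 1.01.

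PVR and NECTIN2 lie 182.6 kb apart on the plus strand of chromosome 19, PVR from 44643798 to 44663583 and NECTIN2 from 44846175 to 44889228. PVR was at 190, 172 and 179 CPM in control libraries and at 160, 174 and 167 CPM in METTL3 shRNA libraries. Library B of the knockdown lay within the control range, and the difference of -0.11 (SE 0.08, 95% interval -0.27 to 0.06) did not pass (edgeR adjusted p = 0.304). The FPKM values of PVR, which carry the scaling by library total, did not overlap between the groups. Its implied length was 3290 ± 57.5 bases in control and 3121 ± 63.2 bases in METTL3 shRNA libraries (SD, n = 3 each). NECTIN2 was at 101, 97.3 and 108 CPM in control libraries and at 104, 100 and 96.6 CPM in METTL3 shRNA libraries. The groups overlapped, with METTL3 shRNA library C below and control library C above all others, and the difference was -0.03 (SE 0.07, 95% interval -0.19 to 0.13, edgeR adjusted p = 0.795). The log2 ratio of PVR to NECTIN2 was 0.82 ± 0.092 and 0.74 ± 0.097 (SD, n = 3 each), with an exact two-sided permutation p of 0.4. Exons of PVR overlap those of CEACAM19 on the same strand, and NECTIN2 overlaps AC011481.2 on the opposite strand.

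ULBP2 (chromosome 6, 149942000 to 149949235) was at 20.3, 20.2 and 23.2 CPM in control libraries and at 16.5, 15.6 and 16.0 CPM in METTL3 shRNA libraries. All knockdown libraries lay below all controls. The gene fell by 24.6%, a log2 fold change of -0.41 (SE 0.08, edgeR adjusted p = 0.0027), and passed in all 17 alternatives. Of the 100-base windows of its transcript, 11.9% also occur in RAET1L or RAET1G, so some of its reads may be shared. RAET1L received 171, 176 and 279 counts in control libraries and 107, 87 and 218 in METTL3 shRNA libraries, and RAET1G at most 6 in any library. The RAET1L difference of -0.47 had the same sign as that of ULBP2 and did not pass (edgeR adjusted p = 0.217).

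The adhesion ligands were not changed past the test. CD58 (chromosome 1, 116514535 to 116571039, minus strand) was at 9.17, 11.5 and 9.88 CPM in control libraries and at 10.4, 8.89 and 10.8 CPM in METTL3 shRNA libraries. Its difference was -0.02 (SE 0.11, 95% interval -0.26 to 0.21, edgeR adjusted p = 0.884). ICAM1 (chromosome 19, 10270835 to 10286615) was at 756, 703 and 673 CPM in control libraries and at 664, 639 and 771 CPM in METTL3 shRNA libraries. METTL3 shRNA libraries A and B lay below all controls and library C above them, and the difference was -0.04 (SE 0.09, 95% interval -0.24 to 0.16, edgeR adjusted p = 0.778). ICAM1 exons overlap AC011511.2 and AC011511.5 on the opposite strand, and no source used here says whether counting took strand into account. Library C of the knockdown was the highest of its group for both PD-1 ligands, both adhesion ligands and CD47. It was not the highest for CD276, LGALS9, PVR, NECTIN2 or ULBP2. The margin over library A was small for CD58 (10.8 against 10.4 CPM) and for CD47 (84.1 against 83.9 CPM). How many of all genes were highest in library C was not counted. IRF1, a transcription factor that induces CD274, was also highest in library C of the knockdown. Its levels were 219, 202 and 265 CPM in knockdown libraries A, B and C against 256, 236 and 263 CPM in controls. That gene was picked after its values were seen, and its part in the ligand levels was not tested.

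**Figure D3:**
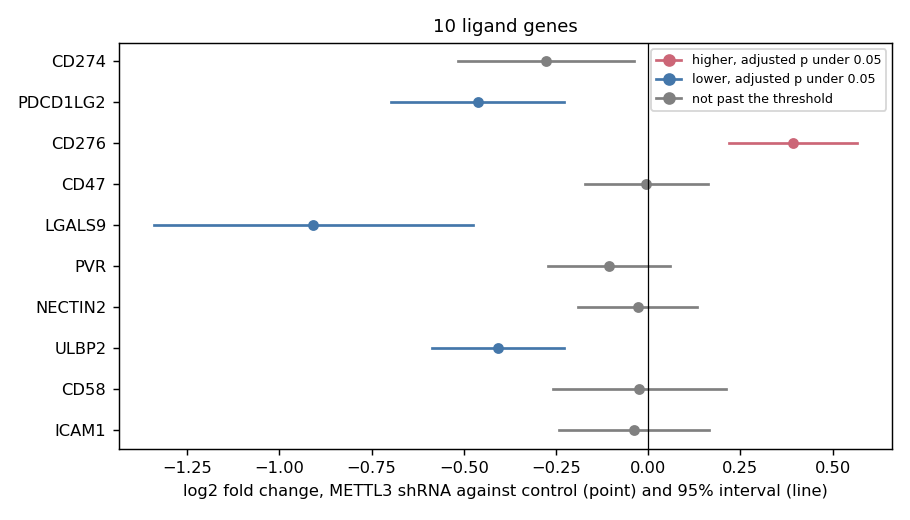
Log2 fold change (points) and 95% interval (lines) of the 10 ligand genes, METTL3 shRNA against control. CD276 at 0.39 lies to the right of 0, LGALS9 at -0.91 is farthest to the left, and the intervals of CD47, PVR, NECTIN2, CD58 and ICAM1 include 0.

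The families of these ligands were read from lists of related genes, 88 in all, of which 73 were tested. Of these, 11 rose, 10 fell and 52 did not pass, so 28.8% changed, against 33.5% of all genes, and their median log2 fold change was 0.0061. Under library size scaling 7 rose and 19 fell. The ligands of NKG2D, which stressed cells display to natural killer cells, moved in both directions. Of 6 tested besides ULBP2, 1 rose, 2 fell and 3 did not pass, with a median of -0.27. MICA rose from 20.2 ± 0.53 to 26.6 ± 1.49 CPM (SD, n = 3 each; log2 fold change 0.40, SE 0.08, edgeR adjusted p = 0.0018). ULBP3 fell from 7.54 ± 0.56 to 5.61 ± 0.28 CPM (log2 fold change -0.43, SE 0.10). RAET1E fell as well, from 0.163 to 0.0585 CPM, but this call was lost in 6 of 14 alternatives, without each control library except C and without METTL3 shRNA library B or C among them. It had 24, 17 and 11 counts in control libraries and 7, 5 and 5 in METTL3 shRNA libraries. Only the controls met the filter on low counts, so RAET1E entered the test through the group where it is high. ULBP1 (-0.10), MICB (-0.05) and RAET1L (-0.47) did not pass. The log2 ratio of ULBP2 to MICA was 0.073 ± 0.15 in control and -0.73 ± 0.054 in METTL3 shRNA libraries (SD, n = 3 each). The ratios were apart by 0.80. Since ULBP2 was lower and MICA higher, each without overlap of CPM, the ratios had to separate. The exact two-sided permutation p of 0.1, the smallest possible, was thus fixed in advance and adds no support. MICA shares exons with HCP5 on the same strand.

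Among nectins and nectin-like proteins, cell-cell adhesion molecules related to PVR and NECTIN2, 5 were tested, of which 1 rose and 2 fell (median -0.07). NECTIN1 fell from 11.2 ± 2.53 to 6.51 ± 0.50 CPM and CADM4 from 3.61 ± 0.79 to 1.90 ± 0.031 CPM (SD, n = 3 each). CADM1, a ligand of the lymphocyte receptor CRTAM, rose from 162 ± 7.02 to 217 ± 9.54 CPM. The log2 fold changes were -0.78 (SE 0.14), -0.93 (SE 0.16) and 0.43 (SE 0.08). The NECTIN1 and CADM4 calls were each lost in 1 of 17 alternatives. NECTIN3 (0.10) and NECTIN4 (-0.07) did not pass.

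On the CD47 axis 6 genes were tested, of which 2 rose and 1 fell (median 0.14). QPCTL, the enzyme that modifies the amino terminus of CD47 for binding to SIRP-alpha, rose from 9.71 ± 0.83 to 14.6 ± 1.98 CPM (SD, n = 3 each; log2 fold change 0.59, SE 0.11, edgeR adjusted p = 0.0014). SIRPA, which encodes SIRP-alpha itself, rose from 94.5 ± 9.30 to 137 ± 11.8 CPM (0.54, SE 0.09). THBS1, a secreted thrombospondin that binds CD47, fell from 135 ± 6.35 to 89.7 ± 17.7 CPM (-0.59, SE 0.11). The QPCTL and THBS1 calls were each lost in 1 of 17 alternatives. QPCT (0.20), CALR (0.04) and CD24 (0.08) did not pass. QPCTL overlaps SNRPD2, SIRPA overlaps AL117335.1 and THBS1 overlaps FSIP1 and AC037198.2, all on the opposite strand.

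**Figure D4:**
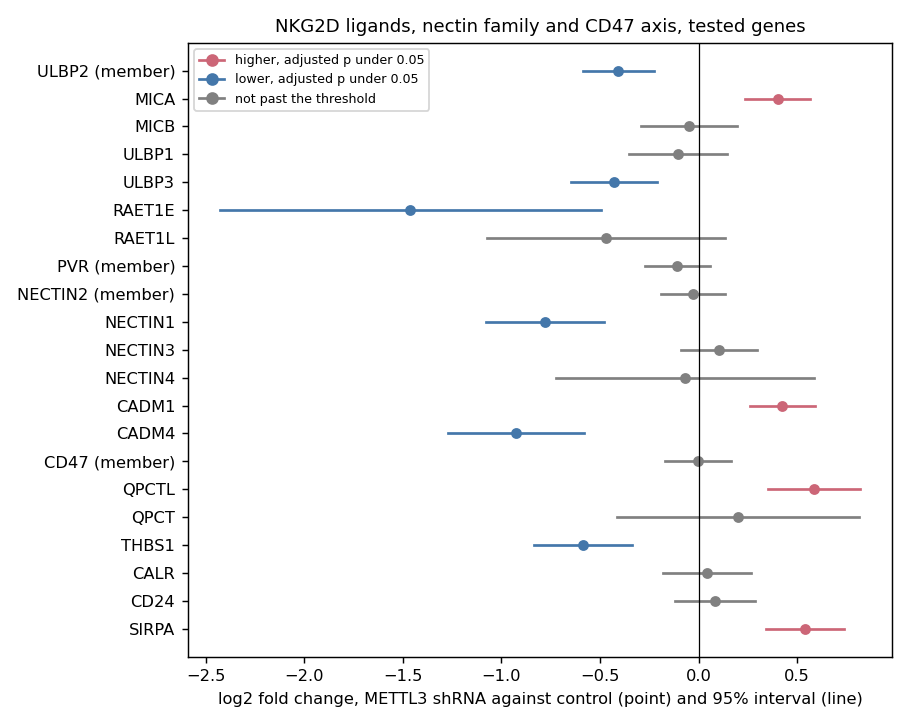
Log2 fold change (points) and 95% interval (lines) of ULBP2, PVR, NECTIN2 and CD47, marked as members, with the tested genes of their families. MICA, CADM1, QPCTL and SIRPA lie above 0, and ULBP2, ULBP3, RAET1E, NECTIN1, CADM4 and THBS1 lie below 0, past the test. RAET1E entered the test through the control libraries only.

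The B7 family, butyrophilins and costimulatory TNF ligands held 12 tested genes, of which 1 rose, 1 fell and 10 did not pass (median 0.03). VSIR, which encodes the inhibitory protein VISTA, fell from 8.73 ± 1.17 to 5.67 ± 0.070 CPM (SD, n = 3 each; log2 fold change -0.62, SE 0.11, edgeR adjusted p = 0.0011). TNFSF4 (OX40 ligand) rose from 0.345 to 0.583 CPM, a call lost in 7 of 14 alternatives. Among these were the fits without library A or B of either group (edgeR adjusted p between 0.0673 and 0.0993). NCR3LG1 (B7-H6), a ligand of the natural killer receptor NKp30, stood at -0.39 (SE 0.15, edgeR adjusted p = 0.0547), and it passed in 6 of 17 alternatives. These were DESeq2, library size scaling, no filter on low counts, the filter of 1 CPM, the block by column letter and leaving out METTL3 shRNA library C (-0.50). It did not pass in the other 11, and its weakest value was -0.21. METTL3 shRNA library A was lowest, at 6.12 CPM against 9.26 and 9.53 CPM in B and C. Without METTL3 shRNA library C, 2 genes of this list were higher and 3 lower. Under library size scaling 0 were higher and 4 lower, and with DESeq2 0 were higher and 2 lower. CD80, CD86, VTCN1 and HHLA2 were not tested, since no library held more than 4 counts of any of them.

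Of 5 other galectins tested, LGALS8 fell (-0.29, SE 0.08), a call lost in 3 of 17 alternatives. Among these were the fits without control library B or METTL3 shRNA library B (edgeR adjusted p of 0.0545 and 0.0630). LGALS4 (-0.52) and LGALS3BP (0.14) did not pass, and the list median was 0.11. LGALS8 exons overlap HEATR1, LGALS8-AS1 and AL359921.1 on the opposite strand. Of 13 other ICAMs and leukocyte adhesion molecules, 4 rose and 0 fell (median 0.07), but 1 rose and 2 fell under library size scaling and in both filtered limma fits on FPKM. F11R, the junctional adhesion molecule A that binds LFA-1, rose from 44.0 ± 0.97 to 73.2 ± 6.54 CPM (SD, n = 3 each; 0.74, SE 0.08, edgeR adjusted p = 6.78e-05). CD99L2 (0.32, SE 0.09), ICAM5 (0.39, SE 0.12) and CD99 (0.26, SE 0.09) rose too, but each of these 3 calls was lost under library size scaling and in at least 3 of the fits without 1 library, METTL3 shRNA library B and control library B among them. The count in this list was 1 without library B of either group, and 2 without control library A, control library C or METTL3 shRNA library A.

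Most regulators of these ligands did not pass the test, and neither did most genes, since 33.5% of all tested passed. The share was 9.09% for PD-L1 stability and glycosylation and 26.7% for interferon-gamma and NF-kB signalling. Of 11 genes for the stability and glycosylation of the PD-L1 protein, only COPS5, a deubiquitinating subunit of the COP9 signalosome, passed, and it fell from 107 ± 2.77 to 81.1 ± 7.80 CPM (SD, n = 3 each; log2 fold change -0.40, SE 0.08, edgeR adjusted p = 0.0027). CMTM4, a partner that keeps PD-L1 at the cell surface, was at 0.12 (SE 0.08), and GSK3B was at 0.12 (SE 0.08). The list median was -0.0075, and under library size scaling 0 rose and 2 fell. Of 15 regulators in interferon-gamma and NF-kB signalling, 2 rose and 2 fell (median -0.10), against 2 and 5 under library size scaling. HIF1A, a hypoxia-inducible factor that can induce CD274, fell from 20.8 ± 2.80 to 13.4 ± 2.12 CPM (SD, n = 3 each; -0.63, SE 0.12). EPAS1 of the same list stood higher, at 511 ± 69.6 and 590 ± 41.9 CPM, and did not pass (0.21, SE 0.10, edgeR adjusted p = 0.147). RNA values do not show whether HIF1A protein is made in this line without functional VHL. A part of HIF1A in the CD274 level was not tested. The receptor chain IFNGR2 rose (0.33, SE 0.08), as did the kinase JAK1 (0.35, SE 0.10). The HIF1A and IFNGR2 calls were each lost in 1 of 17 alternatives and the JAK1 call in 5 of 17. For JAK1 these included the fits without control library C or METTL3 shRNA library B (edgeR adjusted p of 0.0646 and 0.0660). COPS5, IFNGR2, JAK1 and HIF1A all overlap other genes on the opposite strand. On the same strand, COPS5 also shares exons with PPP1R42 and HIF1A with AL137129.1.

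Transcripts of the ligands were also compared for GGACT, a frequent form of the m6A consensus, since the knockdown concerns its writer. No m6A was measured here. Over 19684 protein-coding reference transcripts the median was 0.935 GGACT per kb, with quartiles of 0.529 and 1.42. Among the changed ligands ULBP2 had 0.741, PDCD1LG2 1.27, CD276 1.44 and LGALS9 1.61 per kb. Among the others CD274 had 0.549, CD58 0.911, ICAM1 1.23, PVR 1.80, NECTIN2 2.37 and CD47 3.11 per kb. The changed ligands lay inside the range of the others. The CD47 value rests on a reference transcript of 1285 bases, shorter than the 2732 bases or more that the deposited tables imply. Reference transcripts of the changed ligands LGALS9 (3114 bases) and CD276 (3469 bases) are longer than the implied 1272 to 1479 and 2092 to 2260 bases. The GGACT values of CD47, LGALS9 and CD276 may thus not be those of the transcripts counted.

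As a description, the genes most like each changed ligand of at least 2 CPM were sought by Pearson correlation of log2 CPM over the 6 libraries, among 10747 genes of at least 5 CPM. PDCD1LG2 was closest to CYRIA and LGALS8 (r = 0.998 and 0.997). CD276 was closest to PIGZ and SLC43A1 (r = 0.998 and 0.995), and ULBP2 to BANP and EMC9 (r = 0.999 for each). With 6 libraries in 2 groups such values are common, and 10.5% to 11.7% of the genes compared had an r above 0.9 with these ligands.

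**Figure D5:**
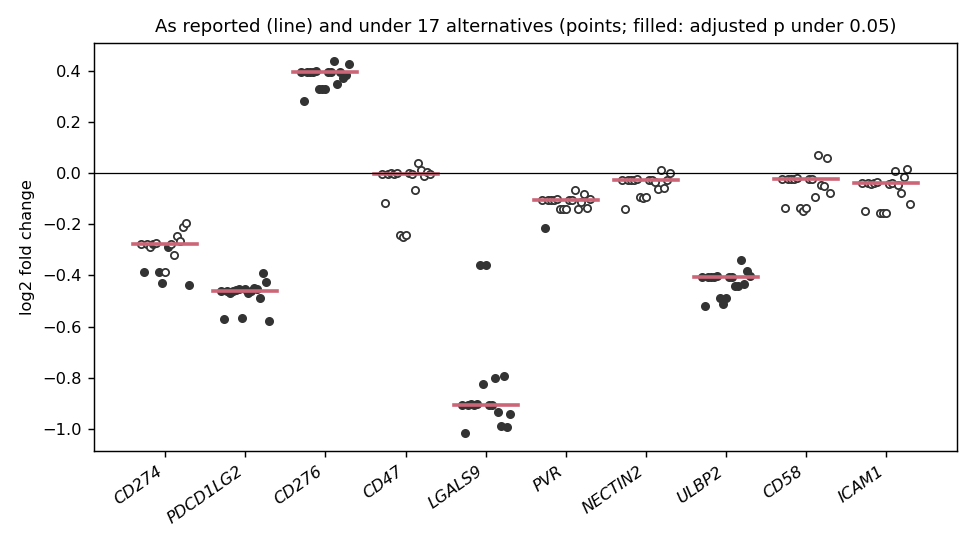
Log2 fold change of each ligand gene as reported (red line) and under 17 other ways of processing (points, filled where the adjusted p is under 0.05). CD276, PDCD1LG2, LGALS9 and ULBP2 are filled throughout, CD274 is filled in 6 of 17 and PVR in 1. LGALS9 met the filters of 0.5 FPKM and 1 CPM through the control libraries only.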

How the data were processed

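Total RNA of 6 libraries was depleted of ribosomal RNA and read as paired ends on a DNBSEQ instrument, per the labels' protocols. STAR 2.7.10b, Salmon and GRCh38 are named, without roles, per the submitters' processing notes. The annotation release and the strand setting are not given there. The authors deposited whole-number counts and FPKM values for 61860 genes. Columns named for the control shRNA formed the control group, and the other 3 were assigned to METTL3 shRNA by elimination. Counts were tested with edgeR 4.0.16 (filterByExpr, TMM scaling, quasi-likelihood test, Benjamini-Hochberg adjustment at 0.05 over 18740 genes) in R 4.3.3, with limma 3.58.1 and DESeq2 1.42.0 as alternatives. Standard errors came from the F statistic. The procedure was tested on simulated counts. Libraries of a group differed beyond sampling noise (chi-square divided by its degrees of freedom 15.2 to 57.3). At 100534896 to 103624456 counts a library, counting error matters most for LGALS9, with 46 to 132 counts, among the ligands.

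The ligands, lists and tests were chosen with earlier results of these data known. The rule for naming took all 10 ligands, METTL3, up to 3 tested genes of smallest p and any that moved against its list, for each related list, and the 2 genes most correlated with each changed ligand of at least 2 CPM. Other members of those lists are given as values beside them, and 1 gene that the rule takes is not reported here. Positions and exon overlaps came from GENCODE 29, which held 58308 of the identifiers and all 10 ligands. Alternatives were other scalings, tests, filters and FPKM pseudocounts, a block by column letter, leaving out mitochondrially encoded genes and leaving out each library in turn.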

Additional observations from a re-analysis of the deposited data

How the results depend on the processing

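CD276, PDCD1LG2, LGALS9 and ULBP2 kept their direction and their call in all 17 alternatives, and METTL3 did too. For LGALS9 the filters of 0.5 FPKM and 1 CPM were met by the control libraries only, so those fits add no support. The number of ligands called was 4 to 6. The number of genes called over the whole table was 3271 with limma on log2(FPKM + 1) and no filter, where 11 related genes were called instead of 21 (1 nectin, 0 galectins, 1 adhesion gene, 1 gene of the CD47 axis and 2 regulators), and 4012 to 6589 when a library was left out, lowest without METTL3 shRNA library B. CD274 passed in 6 alternatives: library size scaling (-0.39), no filter on low counts (-0.28), limma on log2(FPKM + 1) (-0.39) and on log2(FPKM + 0.1) (-0.43) with the filter, the column letter as a block (-0.29), and without METTL3 shRNA library C (-0.44). In the other 11 it did not pass, and its weakest value was -0.20. PVR passed under library size scaling only (-0.22). Values near 0 changed sign. CD47 was 0.00018 with a filter of 1 CPM, and without 1 library it ran from -0.068 to 0.041. Without 1 library CD58 ran from -0.095 to 0.072, NECTIN2 from -0.064 to 0.012 and ICAM1 from -0.12 to 0.016. No label links the column letters to replicate numbers, and deviations of same-letter libraries correlated at -0.018, -0.049 and 0.17, so the libraries were not treated as pairs. The fit with the letter as replicate block called 6985 genes and 5 ligands. Depth limits LGALS9, with 46 to 132 counts, and RAET1E and TNFSF4 among the related genes. The cause of these shifts was not tested.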
